A study of Homo sapiens with 6 samples.

Results

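The zinc finger genes of chromosome 19 were examined in Hep3B cells, an epithelial line from a human hepatocellular carcinoma, after knockdown of NXN, which encodes the redox protein nucleoredoxin. Members were the protein-coding genes on chromosome 19 whose symbol is ZNF followed by a number and whose estimated count averaged at least 10 over the libraries. GENCODE 29 lists 251 such genes, 246 of them were matched in the count table, and 217 passed the count limit, of 23406 features in all. The 29 below the limit included 8 with 0 counts in every library. At the limit, ZNF709 and ZNF177 lay just below, with mean counts of 9.50 and 9.94, and the read-through locus ZNF559-ZNF177 and ZNF208 lay just above, both with 10.4.

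RNA sequencing compared 3 libraries of wild-type cells carrying a control hairpin (shControl) with 3 libraries of cells carrying a hairpin against NXN (shNXN). All cells had received a lentivirus and had been selected with puromycin, and each group gave 1 library on each of days 7, 9 and 11. The labels do not say which hairpin against NXN was used, or whether the days are separate cultures. Without a day block, p-values therefore measure the spread between these libraries, day included. In fits with the day as a block, p-values measure the spread left once the day is taken out. Library totals ran from 15349382 to 16332589 estimated counts. NXN stood at 154 ± 23.4 CPM (each count as a share of its library total, with TMM scaling) in shControl and 43.2 ± 4.03 CPM in shNXN cells (SD, n = 3), without overlap between the groups (log2 fold change -1.83, edgeR adjusted p = 0.0378; two-sided exact permutation p = 0.1, the smallest that 3 against 3 allows). The liver markers ALB, AFP, APOA1, APOB, TTR, SERPINA1, FGB, HNF4A and TF all had at least 156 counts in each library. Of the markers of other cells, PTPRC, CD3E, DCN, VWF and CDH5 had at most 3 counts, COL1A2 had 2 to 12, COL1A1 20 to 43 and CD68 876 to 1585. COL1A1 and CD68 did not pass edgeR's test, and the others were too low to be tested.

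Proteins of this family bind DNA through repeated C2H2 zinc fingers, in which a pair of cysteines and a pair of histidines hold a zinc ion. Most of the chromosome 19 members also carry a KRAB box, which binds the co-repressor TRIM28 and through it the histone methyltransferase SETDB1 and heterochromatin proteins, and many KRAB members silence retroelements. The genes arose by tandem duplication and lie in clusters of close relatives. By a sequence pattern searched in the translated GENCODE 29 coding regions, 183 members had a KRAB box, 32 had none, and 2 read-through loci had no coding region to search. The longest protein of each member held a median of 12 fingers and at most 36 (ZNF208), and ZNF738 held 0.

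Finger-coding sequence is shown as an example of the base composition of these genes, for the 4 members called with day block and GC correction below and for the 2 members with the highest FPKM. Each line holds 1 finger and the linker that follows, 84 bases of coding exon read 5′ to 3′ from GENCODE 29 transcripts (GRCh38), with the codons of the zinc-binding cysteines and histidines in capitals.
ZNF765, chr19:53408288-53408371, plus strand, 45.2% GC: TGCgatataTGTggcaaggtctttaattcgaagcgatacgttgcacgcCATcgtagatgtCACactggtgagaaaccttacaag
ZNF480, chr19:52321947-52322030, plus strand, 39.3% GC: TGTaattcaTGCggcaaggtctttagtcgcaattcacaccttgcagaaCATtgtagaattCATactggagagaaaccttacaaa
ZNF146, chr19:36236492-36236575, plus strand, 40.5% GC: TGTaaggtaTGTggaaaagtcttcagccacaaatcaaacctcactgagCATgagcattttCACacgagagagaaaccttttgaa
ZNF600, chr19:52767099-52767182, minus strand, 40.5% GC: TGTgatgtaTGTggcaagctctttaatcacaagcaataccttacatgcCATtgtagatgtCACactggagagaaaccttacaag
ZNF787, chr19:56088887-56088970, minus strand, 66.7% GC: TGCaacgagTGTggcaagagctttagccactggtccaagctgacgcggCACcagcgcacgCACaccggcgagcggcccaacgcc
ZNF444, chr19:56159758-56159841, plus strand, 69% GC: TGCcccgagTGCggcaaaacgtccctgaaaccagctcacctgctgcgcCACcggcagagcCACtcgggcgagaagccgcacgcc

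The capitals mark the same zinc-binding frame in all of these fingers, whereas the share of G and C ran from 39.3% in ZNF480 to 69.0% in ZNF444. Over all fingers of a gene, the GC content had a median of 41.0% in members with a KRAB box and 61.2% in those without. In the longest transcript the medians were 42% and 60.1%, against 48.4% over all tested features. Of the 183 members with a KRAB box 10 had a transcript GC content of 50% or more, and of the 32 without one 21 had. KRAB status and GC content were therefore largely tied together.

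Members without a KRAB box were the more abundant. Mean FPKM (fragments scaled by transcript length and depth), which allows levels of different genes to be compared, had a median of 13.4 in members without a KRAB box and 4.35 in those with one, and 44 of the 217 members reached 10 FPKM. The highest levels belonged to ZNF787, ZNF444, ZNF358, ZNF428 and ZNF146, and the first 4 of these have GC-rich transcripts and no KRAB box. ZNF787 stood at 112, 86.7 and 62.0 FPKM in shControl and 113, 134 and 107 FPKM in shNXN cells on days 7, 9 and 11. ZNF444, a SCAN domain factor, stood at 79.1, 86.6 and 50.5 FPKM in shControl and 110, 116 and 81.8 FPKM in shNXN cells. The groups overlapped for both genes, and edgeR gave adjusted p values of 0.242 for ZNF787 and 0.344 for ZNF444. The log2 fold change was 0.23 for ZNF358 (standard error 0.27) and 0.00 for ZNF428 (standard error 0.16). After the GC correction described below, the values of these 4 GC-rich genes turned to between -0.37 and -0.06, none of them past the test.

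In counts, the family was lower in shNXN than in shControl cells. Summed over the 217 members, CPM stood at 3575, 4386 and 3489 in shControl and 2477, 2409 and 2949 in shNXN cells on days 7, 9 and 11. Members with a KRAB box summed to 2645 ± 436 CPM in shControl and 1458 ± 284 CPM in shNXN cells (SD, n = 3), and their ranges did not overlap. Members without a KRAB box summed to 1118 ± 129 and 1098 ± 46.2 CPM, and their ranges overlapped. That sum joined members of both signs: of the 32, 11 had a negative and 21 a positive log2 fold change in edgeR's fit. By transcript GC content, 11 of the 32 lay below 50%. With the day as a block in the fit, 7 of the 32 were called lower (21.9%), beside 17% of all tested features. In FPKM, the other deposited scale, the 217 members summed to 1715, 2134 and 1682 in shControl and 1863, 1819 and 1600 in shNXN cells, so that the groups overlapped and the shNXN library was the higher on day 7. The sums were therefore apart in counts and not in FPKM, and in counts the gap between the sums lay among the KRAB members. The median over members stood at 4.33, 6.26 and 4.92 FPKM in shControl and 4.32, 3.93 and 3.88 FPKM in shNXN cells. These medians did not overlap, though narrowly so between the day 7 libraries. In bulk libraries, fewer cells that express a gene and less of its RNA per cell cannot be told apart.

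Of the 217 members, 27 were called lower and 0 higher by edgeR's quasi-likelihood test at an adjusted p under 0.05, which is 12.4% of them, beside 3.21% of all tested features called lower. Among the 216 ZNF genes on other chromosomes, the same fit called 10.6% lower. Without the test's threshold, 183 members had a negative log2 fold change, and the median over members was -0.99, beside 0.03 over all tested features. Of the 27, 26 had a KRAB box and 1, ZNF180, had none. Their log2 fold changes ran from -3.18 to -0.81, all were lower on each of the 3 days, and edgeR's adjusted p ran from 0.0390 to 0.0497 among them, so that all were close to the threshold. With the day as a replicate block in the fit, 76 members were called lower and 0 higher, beside 17% of all tested features called lower, and these 76 included all 27. The count depended on single libraries. With 1 library left out, 0 members were called without shControl day 7 or 11 or shNXN day 7 or 9. In each of those fits 0 of all tested features were called. The count was 10 without shControl day 9 (beside 1.69% of all tested features called lower) and 120 without shNXN day 11 (beside 21.4%). The median stayed between -1.25 and -0.80 in these 6 fits.

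The 10 called members with the smallest p were ZNF480, ZNF302, ZNF765, ZNF600, ZNF441, ZNF780A, ZNF253, ZNF180, ZNF91 and ZNF432. ZNF302 stood at 39.7, 48.9 and 35.3 CPM in shControl and 11.1, 9.13 and 12.6 CPM in shNXN cells on days 7, 9 and 11, a log2 fold change of -1.91 (standard error 0.21, edgeR adjusted p = 0.0390). ZNF441 stood at 2.82, 4.0 and 2.39 CPM in shControl and 0.122, 0.429 and 0.451 CPM in shNXN cells, a log2 fold change of -3.18 (standard error 0.50, edgeR adjusted p = 0.0452). The groups were apart for both genes, and ZNF441 lay near the lower end of what these libraries count. ZNF780A, ZNF253, ZNF180 and ZNF432 had log2 fold changes of -1.89, -1.64, -1.28 and -1.86, and those of ZNF480, ZNF765 and ZNF600 are given below. With the day block and the GC correction described below, the values were -0.66, -0.28, -0.39 and -0.89 for these 4 genes, -0.64 for ZNF302 and -1.95 for ZNF441, and none of the 6 was called (edgeR adjusted p from 0.0851 to 0.439).

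ZNF91 is known for silencing SVA retroelements and ZNF93 for silencing LINE-1 elements. ZNF91 stood at 26.0, 15.9 and 21.0 CPM in shControl and 8.52, 6.44 and 6.57 CPM in shNXN cells, a log2 fold change of -1.54 (standard error 0.26, edgeR adjusted p = 0.0452). ZNF93 stood at 8.33, 9.35 and 7.97 CPM in shControl and 4.14, 1.84 and 3.61 CPM in shNXN cells, and its log2 fold change of -1.42 did not pass the test (edgeR adjusted p = 0.0604, or 0.0358 with the replicate block). Neither gene had overlapping groups in counts. With block and GC correction together, the log2 fold changes were -0.23 for ZNF91 and -0.55 for ZNF93, and edgeR gave adjusted p values of 0.570 and 0.321.

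The other members fixed for their known roles did not pass edgeR's test. ZNF274, which brings SETDB1 to the ends of zinc finger genes, stood at 85.7, 87.2 and 94.5 CPM in shControl and 86.1, 81.3 and 87.5 CPM in shNXN cells, a log2 fold change of -0.07 (standard error 0.12). ZNF331 had a log2 fold change of -0.39, ZNF350, a partner of BRCA1, one of -0.69, ZNF224, a repressor of the aldolase A gene, one of -0.89, and ZNF382 one of -1.06. Their adjusted p values from edgeR ran from 0.0937 for ZNF382 to 0.710 for ZNF274. ZNF671 and ZNF154 fell below the count limit.

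The size of the difference followed transcript GC content. In each library, counts deviated from the mean of all libraries along GC content, with a slope of -0.28, -0.18 and -0.48 on the log2 scale per 10 percentage points of GC in shControl and 0.40, 0.51 and 0.03 in shNXN cells on days 7, 9 and 11. GC-poor genes of every kind were thus lower in shNXN cells, most so on days 7 and 9. Across the 217 members, the log2 fold change correlated with transcript GC content (Spearman 0.66, Pearson 0.68), and across the 12740 tested features with a known GC content the Spearman coefficient was 0.79. These are descriptions across genes that share the same libraries. Whether the slopes stem from the libraries or from the cells cannot be told apart here, since GC slope and group move together.

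**Figure D1:**
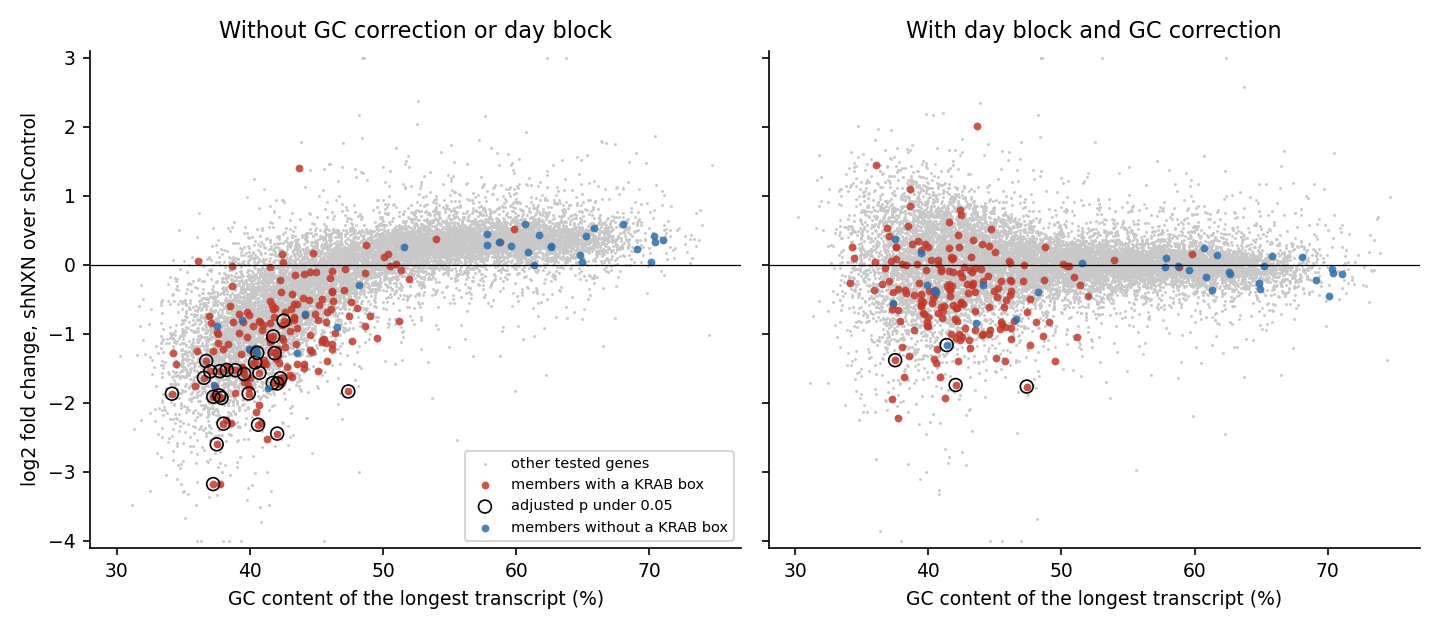
Each point is a gene, with the GC content of its longest transcript (%) on the x axis and the log2 fold change of shNXN over shControl on the y axis, without correction on the left and with day block and GC correction on the right. Grey points are the other tested genes, drawn at the edge where they lie beyond -4 or 3, red and blue points are members with and without a KRAB box, and circles mark an adjusted p under 0.05 from edgeR (27 members on the left, 4 on the right).

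Members were set beside genes of like GC content to see what was left. Between 38% and 42% GC, where 72 members lay, the median log2 fold change was -1.28 for members, -1.24 for ZNF genes on other chromosomes and -0.85 for other protein-coding genes. Between 42% and 46% GC, the medians were -0.91 over 63 members, -0.63 over 40 ZNF genes elsewhere and -0.34 over 1941 other protein-coding genes. Above 60% GC, the medians were 0.30 over 16 members and 0.36 over other protein-coding genes. Between 34% and 38% GC, the medians were -1.54 over 27 members, -1.58 over 20 ZNF genes elsewhere and -1.29 over other protein-coding genes. Between 46% and 50% GC, the medians were -0.63 over 23 members, -0.25 over 28 ZNF genes elsewhere and -0.00085 over other protein-coding genes. Between 50% and 60% GC, they were 0.22, 0.35 and 0.30 in the same order. Above 60% GC, the median of ZNF genes elsewhere was 0.37. In every window the members had a lower median than other protein-coding genes. Against ZNF genes elsewhere, the members had the lower median in every window except that between 34% and 38% GC. None of these differences was tested.

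After each library's GC trend was removed, 0 members passed edgeR's test, beside 0.0284% of all tested features called lower, and 63 members had an unadjusted p under 0.05, of which 58 were lower (29% and 26.7% of the members, beside 17.2% and 8.51% of all tested features). The median over members was -0.34 on the log2 scale, with 170 of the 217 members below 0. With the replicate block as well, 4 members were called lower and 0 higher, which is 1.84%, beside 0.426% of all tested features called lower. The median was then -0.35 over members, -0.38 over members with a KRAB box and -0.14 over those without, beside 0.01 over all tested features and -0.09 over ZNF genes on other chromosomes. The correction removes any difference between the groups that runs along GC content, whatever its origin.

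The 4 members called with block and GC correction were ZNF765, ZNF480, ZNF146 and ZNF600. The count of 4 depended on the days included, since with the day block a library without its same-day partner says little about the groups. It was 0 without either day 7 library, where 0 of all tested features were called. Without shControl or shNXN day 9 it was 6 and 4, of which 5 and 4 were lower (beside 1.77% and 1.24% of all tested features). Without shControl or shNXN day 11 it was 67 and 65, of which 62 and 60 were lower (beside 10.4% and 10.1%). The counts of all 4 genes were lower in every shNXN library than in any shControl library. ZNF765 (ENSG00000196417, chr19:53389793-53430413, plus strand) stood at 21.9, 31.1 and 19.9 CPM in shControl and 6.39, 6.50 and 7.54 CPM in shNXN cells on days 7, 9 and 11. Its log2 fold change was -1.83 without correction and -1.76 (standard error 0.19) with block and GC correction (edgeR adjusted p = 0.0366). The GC content of its longest transcript, which the correction used, was 47.4%, near the 48.4% over all tested features, and the correction moved its value little. Over all its fingers the GC content was 39.9%.

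ZNF480 (ENSG00000198464, chr19:52297177-52325922, plus strand) stood at 35.2, 30.9 and 26.3 CPM in shControl and 5.48, 3.43 and 6.32 CPM in shNXN cells. Its log2 fold change was -2.60 without correction and -1.38 (standard error 0.19) with block and GC correction (edgeR adjusted p = 0.0456). ZNF146 (ENSG00000167635, chr19:36214602-36238774, plus strand), a protein made almost wholly of fingers and without a KRAB box, stood at 105, 93.6 and 128 CPM in shControl and 22, 18.0 and 55.2 CPM in shNXN cells. The day 11 value of ZNF146 lay apart from the other shNXN libraries. Its log2 fold change was -1.78 without correction, which missed the threshold (edgeR adjusted p = 0.0607, or 0.0162 with the replicate block), and -1.16 (standard error 0.16) with block and GC correction (edgeR adjusted p = 0.0465). ZNF600 (ENSG00000189190, chr19:52749942-52786807, minus strand) stood at 16.5, 25.7 and 14.4 CPM in shControl and 2.92, 2.76 and 4.70 CPM in shNXN cells. Its log2 fold change was -2.45 without correction and -1.74 (standard error 0.25) with block and GC correction (edgeR adjusted p = 0.0466). Of the 50-base windows of ZNF600's transcripts 16% recur in other genes, so that part of its counts could have been shared out.

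In FPKM, 3 of these 4 genes overlapped between the groups. ZNF765 stood at 6.19, 8.12 and 6.95 FPKM in shControl and 3.35, 2.87 and 2.63 FPKM in shNXN cells, apart as in counts. ZNF480 stood at 8.02, 9.22 and 6.07 FPKM in shControl and 8.01, 4.77 and 5.00 FPKM in shNXN cells. ZNF146 stood at 42.2, 37.7 and 58.9 FPKM in shControl and 49.7, 39.2 and 34.5 FPKM in shNXN cells. On the log2(FPKM + 1) scale, limma gave differences of -0.35 for ZNF480, -0.16 for ZNF146 and -0.51 for ZNF600, none past the test, and -1.03 for ZNF765 (limma adjusted p = 0.0493).

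**Figure D2:**
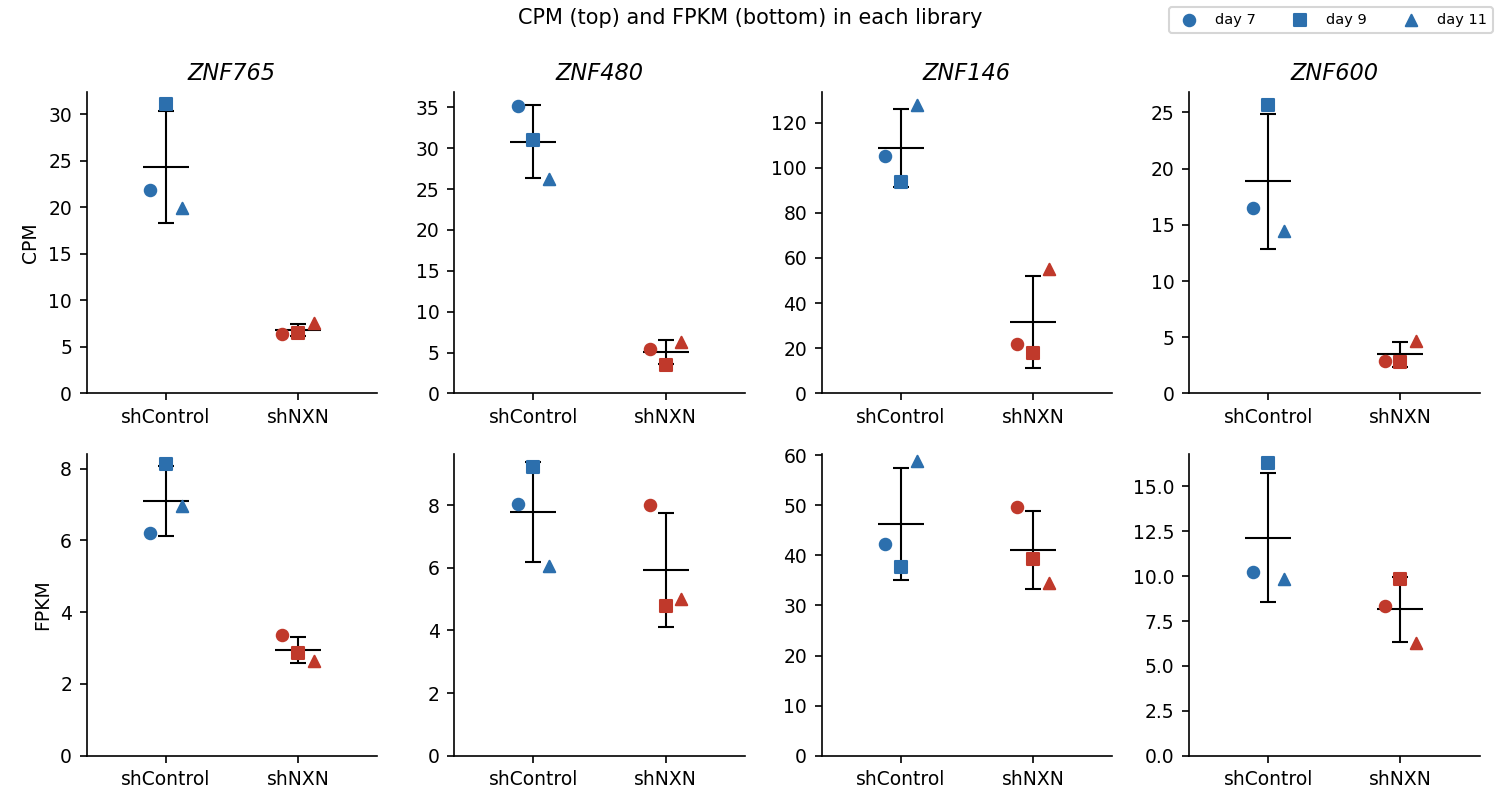
CPM (top row) and FPKM (bottom row) of the 4 members called with block and GC correction, with 1 point per library, circles for day 7, squares for day 9 and triangles for day 11, and bars for mean and SD (n = 3). In CPM all shNXN points lie below all shControl points, and in FPKM this holds for ZNF765 only.

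The 2 scales differ by the transcript lengths behind the FPKM values. Dividing a gene's count by its FPKM and by the library total returns the length that was used, here called the implied length. Over members with at least 10 counts in each library, the median implied length was 2117, 2145 and 2149 bases in shControl and 1328, 1273 and 1727 bases in shNXN cells on days 7, 9 and 11. Over all tested features it ran from 1966 to 2114 bases in shControl and from 1804 to 1954 bases in shNXN cells. For ZNF146 the implied length was 2473, 2477 and 2164 bases in shControl and 454, 464 and 1545 bases in shNXN cells. For ZNF787 it stayed between 1628 and 1672 bases in all 6 libraries. In ZNF146 the difference in implied length was thus smallest on day 11.

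The log2 ratio of implied length, shNXN over shControl, had a median of -0.46 over the 200 members with enough counts, -0.54 over those with a KRAB box and -0.02 over those without, beside -0.04 over all tested features. It lay under -1 for 34 members, 17.0% of those measured, beside 3.08% of all tested features. Across members it correlated with the log2 fold change of counts (Spearman 0.51) and with transcript GC content (Spearman 0.52). Whether read coverage or isoform use had changed was not tested. In FPKM, limma on log2(FPKM + 1) called 5 members lower (2.30%) and 0 higher, beside 1.9% of all tested features called lower, and the median difference on that scale was -0.26 over members and 0.13 over all tested features. The 5 were ZNF676, ZNF560, ZNF443, ZNF765 and ZNF559.

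**Figure D3:**
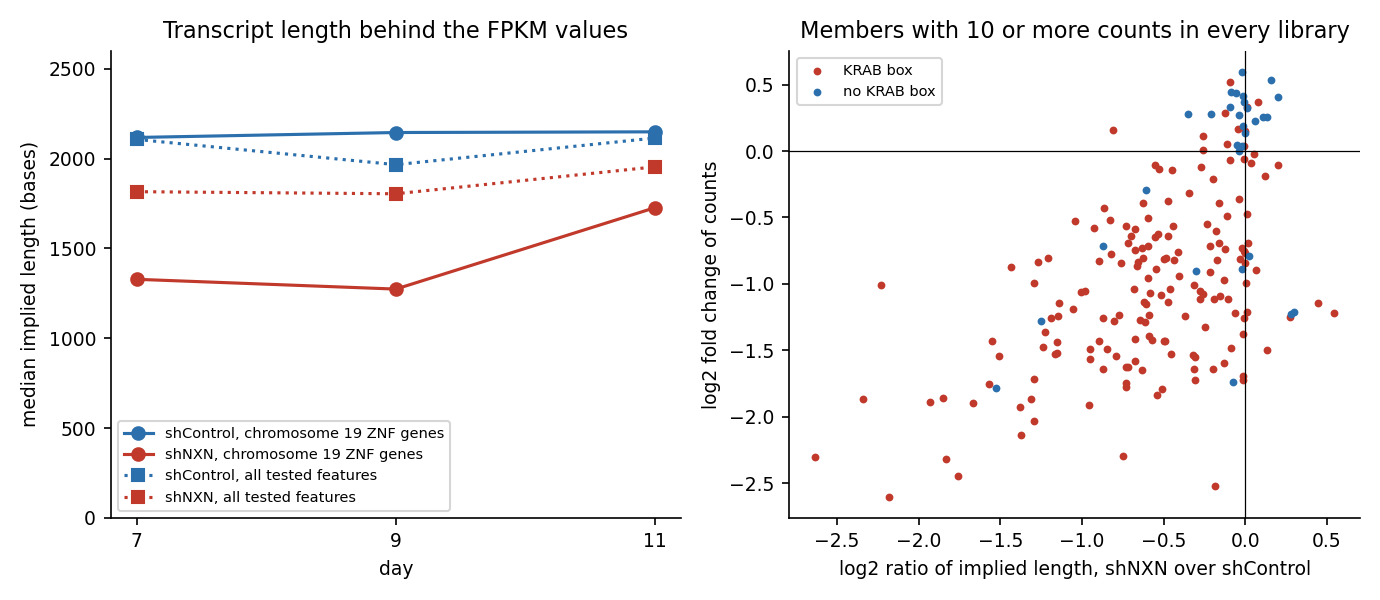
Left, the median implied transcript length in bases on days 7, 9 and 11 for the chromosome 19 ZNF genes (circles, solid lines) and all tested features (squares, dotted lines), in shControl (blue) and shNXN (red). Right, the log2 ratio of implied length against the log2 fold change of counts, for members with at least 10 counts in each library. Red points have a KRAB box and blue points have none. The shNXN line of the ZNF genes lies lowest on every day.

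By day, the shNXN library was compared with the shControl library of the same day, with 1 library on each side and so no test. On days 7, 9 and 11, the median log2 difference over members was -0.91, -1.50 and -0.48, whereas over all tested features it lay between -0.01 and 0.07. For members with a KRAB box the medians were -0.99, -1.61 and -0.53, and for those without they were -0.07, 0.15 and 0.27. After GC correction the medians over members were -0.23, -0.66 and -0.18. Day 9 thus had the lowest median on either scale over all members and over those with a KRAB box, and day 7 over those without.

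Of the 217 members, 155 were lower in shNXN cells on all 3 days, 22 were higher on all 3 days, and 40 changed sign between days. After GC correction the counts were 102, 18 and 97. Day by day and before correction, 182, 182 and 169 of the members were lower on days 7, 9 and 11. Of the 14071 tested features 7034, 7069 and 6381 were lower, and of the 216 ZNF genes on other chromosomes 129, 141 and 120. For 159 members before and 143 after correction, the lowest of the 3 differences fell on day 9. The ZNF genes on other chromosomes also had their lowest median on day 9, with -0.28, -0.51 and -0.13 before correction on days 7, 9 and 11. In counts, every shNXN library lay below every shControl library for 127 members (58.5%), beside 21.5% of all tested features, and in FPKM for 56 members (25.8%), beside 15.2%.

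**Figure D4:**
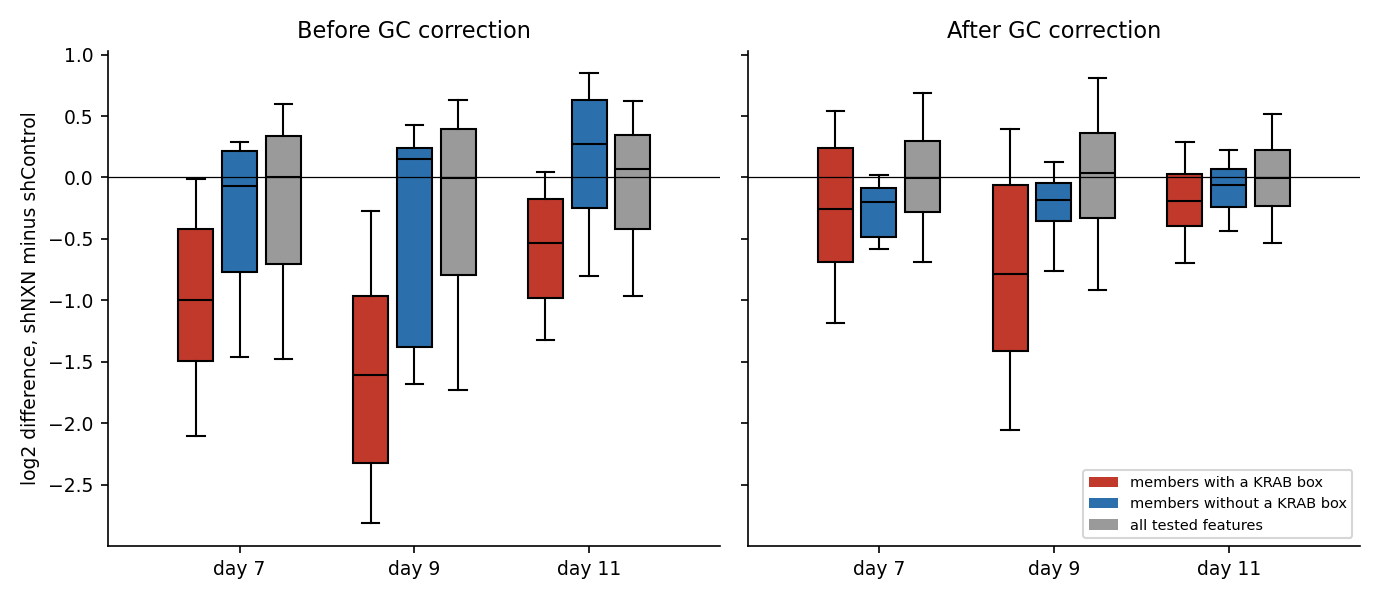
Log2 difference between the shNXN and shControl libraries of the same day, before (left) and after (right) GC correction, for members with a KRAB box (red), members without (blue) and all tested features (grey). Boxes give the quartiles, lines the median and whiskers the span from the 10th to the 90th percentile. The red boxes lie lowest on day 9, with medians of -1.61 before and -0.79 after correction.

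After block and GC correction, the largest differences at a mean of 1 CPM or more and with 1 sign on all 3 days were those of ZNF676, ZNF443 and ZNF441 below 0 and of ZNF738, ZNF726 and ZNF264 above 0. None of the 6 passed edgeR's test on that scale. ZNF676 had 82, 88 and 78 counts in shControl and 6.63, 0 and 20 counts in shNXN cells, and its corrected log2 fold change of -2.22 had a standard error of 0.72. ZNF443 stood at 10.4, 20.1 and 11.7 CPM in shControl and 1.03, 1.29 and 5.03 CPM in shNXN cells, and shared 40.2% of its 50-base windows with other genes. With the replicate block alone, edgeR gave adjusted p values of 0.0424 for ZNF676 and 0.0334 for ZNF443. ZNF738 had a corrected log2 fold change of 1.45 (standard error 0.33, edgeR adjusted p = 0.0950) but 0.05 without correction. It stood at 5.31, 4.25 and 7.18 CPM in shControl and 7.61, 4.78 and 4.96 CPM in shNXN cells, with overlapping groups. ZNF726 and ZNF264 had corrected values of 0.84 and 0.80, and -0.31 and 0.16 without correction.

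Along the chromosome, members were grouped wherever neighbouring ZNF genes started less than 1 Mb apart. This gave 15 groups, of which 7 held 15 or more members. The group of 34 members from ZNF175 to ZNF331 (chr19:51571298-53580269), all with a KRAB box, held 11 of the 27 called members and all of its members had negative log2 fold changes, with a median of -1.42. ZNF480, ZNF600 and ZNF765 lie in it, and after block and GC correction its median was -0.60. The group of 18 from ZNF653 to ZNF791 (chr19:11483427-12640098) had medians of -1.53 before and -0.92 after correction, with 3 called. The 27 members from ZNF101 to ZNF254 (chr19:19668796-24129961), the most GC-poor of the large groups with a median of 37.6%, had medians of -1.27 before and -0.05 after correction, with 5 called. The 56 members from ZNF628 to ZNF446 (chr19:55476332-58481230) had medians of -0.50 and -0.19, with 0 called and 3 called with the replicate block. Of all tested features, 3.21% were called lower without block or correction and 17% with the replicate block. No test was made between the groups.

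**Figure D5:**
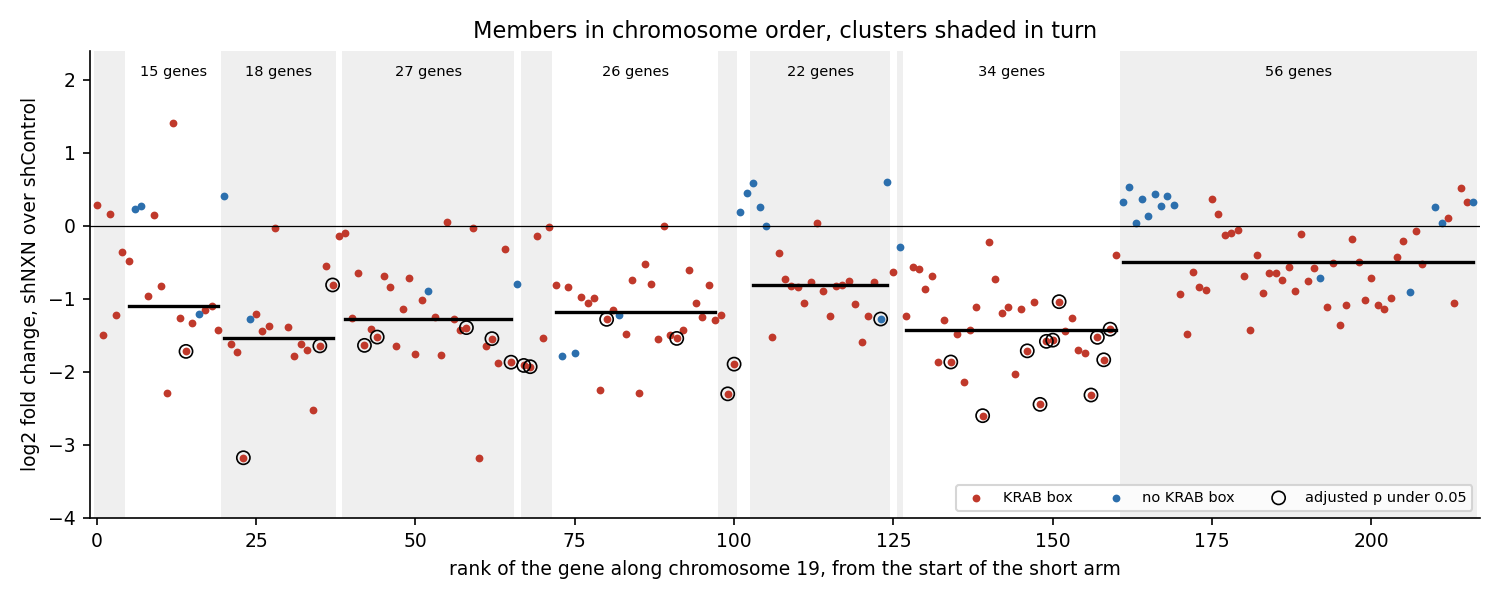
Log2 fold change (shNXN over shControl, without correction) of the members in their order along chromosome 19. Red points have a KRAB box, blue points have none, and circles mark an adjusted p under 0.05 from edgeR. The 2 members with no coding region to search have no point. Shading marks the groups in turn, black lines the medians of groups with 15 or more members. The group of 34 holds 11 of the 27 circles and the group of 56 at the right holds 0.

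Other features of the members were compared with the log2 fold change as descriptions across genes. The number of fingers had a Spearman coefficient of -0.35 over 215 members, and -0.23 against the fold change with block and GC correction. The GC content of the coding region gave 0.72 and the GC content of the fingers alone 0.64. The share of 50-base windows found in another gene gave -0.08, and 46 members shared over 10% of their windows. Without these 46, 19 of 171 members were called, beside 3.21% of all tested features called lower, and the median was -0.97.

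Promoter sequence was read for 193 members (RefSeq, GRCh38.p14, 250 bases before to 50 after the start). Its GC content had a median of 60.3%, and its Spearman coefficient with the log2 fold change was 0.17, lower than that of the transcript. The ETS core motif CCGGAAG, on either strand, was found in 89 of these promoters (46.1%), beside 14.4% of 15317 promoters of protein-coding genes. The GC box GGGCGG was found in 128 (66.3%), beside 59.2%, and the motifs overlapped in 1 member promoter. Of the 70 promoters of members called with the replicate block 36 held the ETS core (51.4%), and of the 123 promoters of the others 53 did (43.1%). The promoters of ZNF765 and ZNF146 are shown because both genes were called with block and GC correction, the one with both motifs in its window and the other with neither. Capitals mark the motifs.
ZNF765, chr19:53394899-53395198, plus strand, 66% GC: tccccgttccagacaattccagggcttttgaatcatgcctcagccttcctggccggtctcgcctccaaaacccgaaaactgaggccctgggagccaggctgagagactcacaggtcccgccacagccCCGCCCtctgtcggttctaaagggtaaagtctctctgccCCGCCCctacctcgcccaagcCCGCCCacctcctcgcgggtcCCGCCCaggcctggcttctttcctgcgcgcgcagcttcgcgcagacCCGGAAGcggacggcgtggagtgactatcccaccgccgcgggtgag
ZNF146, chr19:36214856-36215155, plus strand, 59% GC: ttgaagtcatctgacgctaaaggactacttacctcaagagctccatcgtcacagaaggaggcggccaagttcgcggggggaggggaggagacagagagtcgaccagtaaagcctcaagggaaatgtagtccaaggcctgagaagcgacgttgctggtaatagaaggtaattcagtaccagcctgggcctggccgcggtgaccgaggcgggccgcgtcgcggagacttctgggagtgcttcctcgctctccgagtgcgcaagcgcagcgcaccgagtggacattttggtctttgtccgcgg

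The GC box was found in 48 of the 70 (68.6%) and in 80 of the 123 (65.0%). Of the 23 promoters of members called without block or correction, 13 held the ETS core (56.5%) and 18 the GC box (78.3%). These shares were not tested. A match is a description of these windows and not a binding site.

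Proteins that work with KRAB zinc fingers were taken as a list of 46 genes, of which 45 were matched and tested, among them TRIM28, SETDB1, the HP1 proteins and the NuRD and HUSH complexes. Of these, 7 were called lower (15.6%) and 0 higher by edgeR, beside the 3.21% of all tested features. Among them were SMARCAD1, CBX3, H3-3B, MORC3 and ATRX. With the replicate block, 13 were called lower (28.9%, beside 17% of all tested features) and 3 higher, and with block and GC correction 2 lower (4.44%, beside 0.426%) and 0 higher. The median log2 fold change over the 45 was 0.09 without block or correction and -0.01 with both. CBX3, the heterochromatin protein HP1 gamma, stood at 277 ± 54.0 CPM in shControl and 105 ± 23.9 CPM in shNXN cells (SD, n = 3), a log2 fold change of -1.39, or -0.38 with block and GC correction. The 2 called with block and GC correction were SMARCAD1, a chromatin remodeller, and H3-3B, a histone H3.3 gene. SMARCAD1 had a log2 fold change of -2.74 without correction and -1.45 with both (edgeR adjusted p = 0.0379), and H3-3B one of -0.78 without correction and -0.95 with both (edgeR adjusted p = 0.0379). On the log2(FPKM + 1) scale, limma gave -2.19 for SMARCAD1 (limma adjusted p = 0.0352) and -0.11 for H3-3B (limma adjusted p = 0.667).

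TRIM28, the co-repressor that the KRAB box binds, differed by 0.42 on the log2 scale (standard error 0.14, edgeR adjusted p = 0.0963), and SETDB1 by 0.04 (standard error 0.18, edgeR adjusted p = 0.884). TRIM28's transcript is GC-rich, and its value with block and GC correction was 0.01. Neither gene passed edgeR's test without correction, with the block, with GC correction or with both.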

How the data were processed

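RNA sequencing measured Hep3B cells with shControl or shNXN in 6 libraries. The authors deposited a table of estimated counts per gene and another of FPKM values, in which fragments are scaled by transcript length and sequencing depth. The aligner and counting program are not given in the sources used here. The submitters' processing notes name the mouse builds GRCm38 and mm10, whereas 19498 of the 20314 Ensembl identifiers matched human GENCODE 29, so that the build used is not known. There were 0 columns without a sample, and groups and days came from the labels.

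Counts were rounded and fitted over all 14071 tested features with edgeR 4.0.16 (R 4.3.3), with TMM scaling, filterByExpr and the quasi-likelihood test, and Benjamini-Hochberg adjusted p values under 0.05 were called. Deposited FPKM values were tested with limma 3.58.1 on log2(FPKM + 1), which understates the change of low genes. DESeq2 1.42.0, RLE factors, library size only, other filters and each library left out were alternatives. For the GC correction, a natural spline (degrees of freedom 5) was fitted in each library to log2 deviations along the GC content of the longest GENCODE 29 transcript, known for 90.5% of tested features, and entered it as an offset. Libraries of the same day deviated together (correlations of 0.26, 0.28 and 0.41), the labels give them the same day, and the block is that day. No 2 libraries of a group agreed within sampling noise (chi-square per gene of 20.1 to 77.8). The fits were tested on simulated data. Python 3.11.15, pandas 2.3.3, numpy 2.4.6 and scipy 1.17.1 were used for the rest.

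A C2H2 finger was counted where a pair of cysteines 2 to 4 residues apart was followed after 12 residues by a pair of histidines 3 to 5 apart, and the KRAB box by a loose pattern of its A part, so that both counts are approximate. Depth limits ZNF genes in particular, many of which hold under 100 counts, and paralogs and read-through loci share reads, so that estimated counts of close relatives are uncertain.

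The members, lists and motifs were chosen with earlier results of these data known. Named genes were up to 10 members with the smallest p among those called without and with block and GC correction. To these came the 5 members with the highest mean FPKM and 10 genes of known role, of which 8 were members. Also named were the 3 largest corrected rises and falls at 1 CPM or more with 1 sign on each day. The rest were the 2 genes on either side of the count limit, NXN, and called cofactors with TRIM28 and SETDB1. ZNF560, ZNF559 and the members named as ends of chromosome groups fall outside this rule, chosen with their values in view. Not every called cofactor is reported here by name.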

Additional observations from a re-analysis of the deposited data

Results flagged for a closer look

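For 9 of the named members, the shNXN library was above the shControl library on some days and below it on others. With 1 library on each side of a day, the difference between days was not tested. Without GC correction, the log2 differences on days 7, 9 and 11 were -0.065, 0.57 and 0.85 for ZNF787 and -0.18, 0.10 and 0.12 for ZNF428, both GC-rich and without a KRAB box. They were 0.27, 0.21 and -0.047 for ZNF264, -0.53, 0.23 and -0.50 for ZNF726 and 0.52, 0.17 and -0.53 for ZNF738, the 3 members named for 1 sign on all days after GC correction. The values of ZNF274 were near 0 on each day, at 0.0070, -0.10 and -0.11. ZNF350 had values of -0.58, -1.37 and 0.041, the last on the day with the smallest difference over the whole family. The read-through locus ZNF559-ZNF177, with 2.59, -0.51 and 3.43, and ZNF208, with -0.61, 0.39 and 0.066, lay at the count limit, where a few counts move a log2 value far.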

How the results depend on the processing

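Of the 217 members, 27 were called without block or correction. DESeq2 called 108, edgeR with RLE factors 41, edgeR scaled by library size alone 44, and edgeR with the replicate block 76, all lower, beside 16.8%, 5.44%, 6.17% and 17% of all tested features called lower, with medians of the log2 fold change between -0.99 and -0.98. GC correction left 0 calls (63 at an unadjusted p under 0.05, or 29% beside 17.2% of all features) and a median of -0.34, and block and GC correction together left 4 calls and -0.35. With a spline of 3 degrees of freedom these became 2 calls (0.313% of all features lower) and -0.35, and with the mean GC content of all transcripts 8 calls (1.07%) and -0.61. In limma, log2(FPKM + 1) gave 5 calls and -0.26, and log2(FPKM + 0.1) gave 0 calls and -0.29. On the latter scale, 51 members had an unadjusted p under 0.05 (23.5%, beside 29.4% of all features). Of these 51, 46 were lower, which is 21.2% of the members, beside 14.9% of all features. Without both day 11 libraries, an alternative chosen after seeing the data, 133 members were called lower, beside 23.8% of all features, or 41 with a median of -0.45 after GC correction, 2 of them higher and 39 lower, beside 7.67%.

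Leaving out 1 library moved the count of 27 from 0 to 120. It was 0 without either day 7 library, shControl day 11 or shNXN day 9, where 0 of all tested features were called. It was 10 without shControl day 9 and 120 without shNXN day 11. With block and GC correction, an added alternative with 1 residual degree of freedom, it was 0 without either day 7 library. It was 6 without shControl day 9 and 4 without shNXN day 9 (beside 1.77% and 1.24% of all features called lower). It was 67 without shControl day 11 and 65 without shNXN day 11, 5 of them higher in each. In the 6 fits without block or correction and with 1 library left out, NXN stayed between -1.90 and -1.67 and lost its call in 4. Of the cofactors, 7 were called without block or correction, 16 with the replicate block (13 lower, 3 higher), 0 with GC correction, 2 with both and 19 with DESeq2. The shares of all tested features called in either direction were 3.39%, 23.3%, 0.0355%, 1.07% and 23.5%. Other filters and count limits, and leaving out read-through loci or members with over 10% of windows shared, kept the count within 1.5 times of 27. Among named members, the block added the calls of ZNF146, ZNF93, ZNF676, ZNF443 and ZNF559 and removed none. The causes were not tested.

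Named members also changed sign. With GC correction the log2 fold change was -0.066 for ZNF787, -0.059 for ZNF444, -0.21 for ZNF358, -0.37 for ZNF428, 0.88 for ZNF726 and 1.15 for ZNF208. With block and GC correction it was -0.055, -0.039, -0.21, -0.37, 0.84 and 1.10, and 0.065 for ZNF224. On log2(FPKM + 1) and log2(FPKM + 0.1) it was 0.16 and 0.16 for ZNF180, 0.045 and 0.076 for ZNF726, 0.032 and 0.033 for ZNF274, 0.12 and 0.14 for ZNF350, 0.084 and 0.099 for ZNF382, and 0.42 and 0.73 for ZNF208. Leaving out 1 library, it ran from -0.038 to 0.16 for ZNF428, from -0.19 to 0.34 for ZNF738, from -0.090 to 0.035 for ZNF274 and from -0.47 to 0.25 for ZNF208.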

Other observations

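ZNF559 and the read-through locus ZNF559-ZNF177 lie on the same stretch of chromosome 19, and their fitted log2 fold changes had opposite signs. ZNF559 stood at 19.1, 32.0 and 22.9 CPM in shControl and 3.23, 2.45 and 9.41 CPM in shNXN cells on days 7, 9 and 11. The read-through locus stood at 0.197, 0.800 and 0.0613 CPM in shControl and 1.34, 0.552 and 0.967 CPM in shNXN cells, with overlapping groups. Of its 50-base windows 93.9% are shared with other genes, and the part of this sharing in both values was not tested.

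The ZNF genes on other chromosomes, 216 with a mean count of at least 10, had a median log2 fold change of -0.34, and edgeR called 23 of them lower (10.6%, beside 3.21% of all tested features) and 0 higher. With block and GC correction their median was -0.09, and 1 was called lower (0.463%, beside 0.426%) and 1 higher.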
